A study of Mus musculus with 8 samples.

Results

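Serpine2 and 5 further genes of secreted serpins and plasminogen activation were followed in whole mouse sciatic nerve on postnatal day 6, while Schwann cells there are making myelin. The 6 genes are the serpin genes Serpine2, Serpinf1 and Serping1, the plasminogen activator genes Plat and Plau and the receptor gene Plaur, out of 55487 genes in the table. They were chosen by their function with the CNP-Cdk7cKO against Ctrl values of these same libraries already known, so that contrast is given for them as a description, with no test. All 6 were found by symbol and all 6 passed the filter on low counts, as did 15056 genes in all. The 4 Ctrl libraries came from mice with the genotype CNP+/+ Cdk7lox/lox. The 4 CNP-Cdk7cKO libraries came from mice with the genotype CNPcre/+ Cdk7lox/lox. Both groups therefore carry 2 floxed alleles of Cdk7, the kinase gene of the general transcription factor TFIIH, and the knockout animals also carry Cre at the Cnp locus, which is active in myelin-forming glia. RNA was taken from the whole nerve, which also holds fibroblasts, perineurial, vascular and immune cells, so fewer cells of a type and less RNA per cell cannot be told apart. Whether the libraries of a group are different animals is not said in the labels, so p-values reflect only how these libraries vary, which may be technical.

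Plasminogen circulates as an inactive protease precursor and is cut to plasmin by tissue-type plasminogen activator (Plat) or by urokinase (Plau), which the receptor uPAR (Plaur) holds at the cell surface. Plasmin dissolves fibrin, cleaves matrix proteins and helps to activate matrix metalloproteinases. Protease nexin-1, the product of Serpine2, is a secreted inhibitor of thrombin, urokinase, tissue-type activator and plasmin that glia and fibroblasts release. C1 inhibitor (Serping1) blocks the C1r and C1s proteases of complement and contact-phase proteases, whereas pigment epithelium-derived factor (PEDF, Serpinf1) has the serpin fold but does not inhibit proteases. In injured nerve, fibrin deposits hinder remyelination and are cleared by this system.

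Promoter sequence is shown for Serpine2, the member with the largest difference, and for Plaur, a member whose groups overlapped. RefSeq windows on GRCm38.p6 were found for 3 of the 6 members, and the window of Serpinf1 is not shown because annotated exons cover most of it. Each line below runs 5′ to 3′ on the gene's strand and lies upstream of the RefSeq start site. Capitals mark the GC box GGGCGG and the AP-1 site TGACTCA, each searched on both strands, with matches allowed to overlap. The Serpine2 stretch lies at chr1:79858697-79858915 on the minus strand, inside the GENCODE span of the gene given below, whose 5′ end is further upstream than the RefSeq start. It leaves out the last 31 bases before the start site because an annotated Serpine2 exon covers them. The Plaur stretch lies at chr7:24462233-24462482 on the plus strand.
Serpine2: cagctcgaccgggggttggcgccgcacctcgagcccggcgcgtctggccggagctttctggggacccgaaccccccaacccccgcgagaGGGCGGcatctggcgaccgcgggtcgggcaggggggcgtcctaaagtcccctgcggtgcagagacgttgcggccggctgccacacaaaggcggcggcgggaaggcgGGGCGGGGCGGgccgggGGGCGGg
Plaur: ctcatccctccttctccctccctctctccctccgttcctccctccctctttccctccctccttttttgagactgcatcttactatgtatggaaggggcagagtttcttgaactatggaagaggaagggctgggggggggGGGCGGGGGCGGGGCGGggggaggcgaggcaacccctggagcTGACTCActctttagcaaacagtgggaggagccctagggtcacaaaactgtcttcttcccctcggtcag

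The 250 bases before the RefSeq start of Serpine2 were 78.8% G or C, more than in 98.3% of 32851 such windows, and held 6 GC boxes. The stretch shown above holds 4 of these GC boxes, and the rest lie in the 31 bases left out of it. Of all windows 32.7% held at least 1 GC box and 1.93% held at least 5. The Plaur window held 3 GC boxes and 1 AP-1 site, a motif found in 4.46% of windows. The Serpinf1 window, 51.6% G or C, held neither motif and 3 CCAAT boxes (searched as CCAAT on both strands, in 33.8% of windows). A TATA box (TATAAA, in 12.4% of windows) and the p53 half-site (in 7.13%) matched in 0 of the 3 windows. Such matches describe the letters only.

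The libraries held between 16897231 and 21527886 counts. Levels are counts per 1000000 (CPM), with library totals scaled by TMM (trimmed mean of M values) factors. A log2 fold change is the knockout level over the control level. Its standard error (SE) was derived from the edgeR fit, as its absolute value over the square root of the quasi-likelihood F statistic. The targeted gene Cdk7 measured 20.6 to 22.2 CPM in the controls and 9.62 to 12.7 CPM in the knockouts. Xist, transcribed from the inactive X chromosome, measured 305 CPM in Ctrl 1, at most 0.103 CPM in Ctrl 2, 3 and 4, and 281 to 331 CPM in the knockout libraries, so by this gene Ctrl 1 and all 4 knockout libraries were female and the other controls male. Summed over 10 Schwann cell markers, expression was 133000 to 149000 CPM in the controls and 101000 to 111000 CPM in the knockouts, and 6 of the 10 were lower (adjusted p under 0.05). Summed over 10 fibroblast markers, most of it collagen I, it was 26700 to 30300 CPM in the controls and 30600 to 35400 CPM in the knockouts, with 3 of 10 higher and 0 lower. For 15 skeletal muscle markers the sums were 548 to 5500 CPM in the controls and 97.3 to 674 CPM in the knockouts, with 13 lower. All fibroblast and Schwann cell markers were detected.

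Serpine2 was higher in every knockout library than in any control library, and the group means differed by 1.77-fold. Serpine2 (ENSMUSG00000026249), on chromosome 1 from 79794197 to 79861180 on the minus strand (GRCm38), stood at 323, 312, 310.4 and 311 CPM across Ctrl 1 to 4. Across the knockout libraries, numbered likewise, it stood at 581, 599.5, 480.0 and 565 CPM. The control values lie close together, with a coefficient of variation of 1.84%, and the knockout values spread more, at 9.49%, with CNP-Cdk7cKO 3 the lowest. Between the lowest knockout and the highest control library there was a gap of 157 CPM. On average this was 314 ± 5.78 and 556 ± 52.8 CPM (SD, n = 4), or a log2 fold change of 0.83 ± 0.06 (SE). Among 1776 tested genes with a mean of at least 100 CPM, 2 had a larger log2 fold change. Serpine2 was chosen with this contrast known, so its rank is only a description. Genes of lower level, some with larger changes such as St14 (1.27), are left out of this rank. Against Ctrl 1 alone, the female control, the mean of the knockout libraries was 1.72-fold higher. The log2 fold change was 0.93 ± 0.10 once the muscle markers entered the fit as a covariate, and 0.78 ± 0.11 (SE) with Xist in their place.

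The other two serpin genes were higher on average by a smaller amount, and their groups overlapped. Serpinf1 (ENSMUSG00000000753), on chromosome 11 from 75409769 to 75422701 on the minus strand, stood at 275, 256, 231 and 228 CPM across Ctrl 1 to 4. The knockout libraries 1 to 4 gave 290.4, 304, 269 and 296 CPM, so 3 of 4 knockout libraries exceeded every control and CNP-Cdk7cKO 3 lay below Ctrl 1. Serpinf1 averaged 248 ± 22.2 and 289.7 ± 15.1 CPM (SD, n = 4), a log2 difference of 0.23 ± 0.07 (SE). Serping1 (ENSMUSG00000023224), on chromosome 2 from 84765387 to 84775444 on the minus strand, stood at 388, 375, 314 and 313 CPM across Ctrl 1 to 4. Across the knockout libraries, numbered likewise, it stood at 385, 426, 365 and 399.8 CPM. Here 2 of 4 knockout libraries exceeded every control. Serping1 averaged 347 ± 39.5 and 394 ± 25.7 CPM (SD, n = 4), a log2 difference of 0.18 ± 0.08 (SE). For both genes Ctrl 1 was the highest control, as it also was for the summed fibroblast markers. Against Ctrl 1 alone, the knockout means were 1.05-fold for Serpinf1 and 1.02-fold for Serping1. With Xist as a covariate the log2 fold changes were 0.07 ± 0.08 for Serpinf1 and 0.01 ± 0.11 for Serping1 (SE), a fit that rests on Ctrl 1 as the only control library with Xist.

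Of the activator genes, Plat was the more highly expressed, and the groups of Plau overlapped. Plat (ENSMUSG00000031538), on chromosome 8 from 22757727 to 22782844 on the plus strand, stood at 119.5, 111, 108 and 127 CPM across Ctrl 1 to 4. The knockout libraries 1 to 4 gave 133, 129, 141 and 142 CPM. These groups did not overlap, but the gap between them was 1.98 CPM. Plat averaged 116 ± 8.72 and 136 ± 6.37 CPM (SD, n = 4), a log2 difference of 0.23 ± 0.06 (SE), and the fold against Ctrl 1 alone was 1.14. Plau (ENSMUSG00000021822), on chromosome 14 from 20836660 to 20843385 on the plus strand, stood at 7.35, 9.20, 13 and 8.49 CPM across Ctrl 1 to 4. Across the knockout libraries, numbered likewise, it stood at 11, 10.1, 11.7 and 12.1 CPM. Ctrl 3 was above all 4 knockout libraries and the other controls were below them. Plau averaged 9.51 ± 2.45 and 11.2 ± 0.881 CPM (SD, n = 4), a log2 difference of 0.23 ± 0.16 (SE).

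The receptor gene Plaur was the least expressed member. Plaur (ENSMUSG00000046223), on chromosome 7 from 24462484 to 24475968 on the plus strand, stood at 2.39, 3.83, 3.80 and 3.07 CPM across Ctrl 1 to 4. The knockout libraries 1 to 4 gave 3.62, 3.38, 4.34 and 3.39 CPM. These values rest on 39 to 87 counts a library, and 1 of 4 knockout libraries exceeded every control. Plaur averaged 3.27 ± 0.686 and 3.68 ± 0.452 CPM (SD, n = 4), a log2 difference of 0.16 ± 0.18 (SE). For both low genes Ctrl 1 was the lowest control, and against it the knockout means were 1.53-fold for Plau and 1.54-fold for Plaur. With Xist as a covariate their log2 fold changes were 0.59 ± 0.24 and 0.60 ± 0.28, whereas they were 0.06 ± 0.26 and 0.06 ± 0.31 (SE) in the fit with the muscle markers. Plau had 0.42 without Ctrl 3 and 0.13 without Ctrl 1, and Plaur 0.05 without Ctrl 1 and 0.08 without CNP-Cdk7cKO 3.

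**Figure D1:**
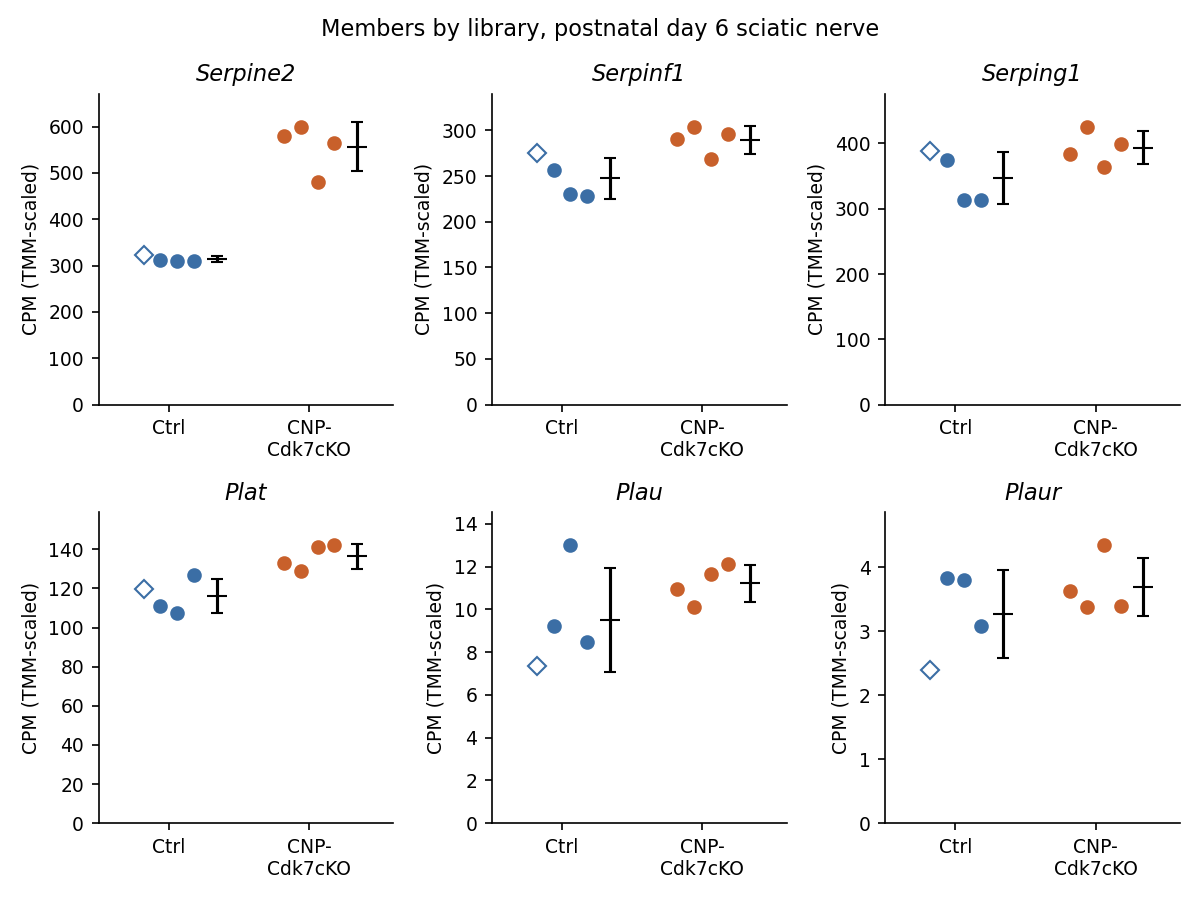
CPM of the 6 members in each library (circles; the open diamond is Ctrl 1, the female control), with the mean and SD of each group of 4 as a bar. Serpine2 lies at 310.4 to 323 CPM in the controls and 480.0 to 599.5 CPM in the knockouts, Plat is separated by 1.98 CPM, and the groups of the other 4 genes overlap.

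All 6 members had a higher mean in the knockout nerves, and the 5 other than Serpine2 lay between 0.16 and 0.23 on the log2 scale. The median over the members was 0.23, beside 0.00 over all tested genes, of which 50.7% had a positive value. The groups of 2 of 6 members did not overlap with the knockout above, as for 9.34% of tested genes. The members were chosen with this contrast known, so nothing is read from this count.

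**Figure D2:**
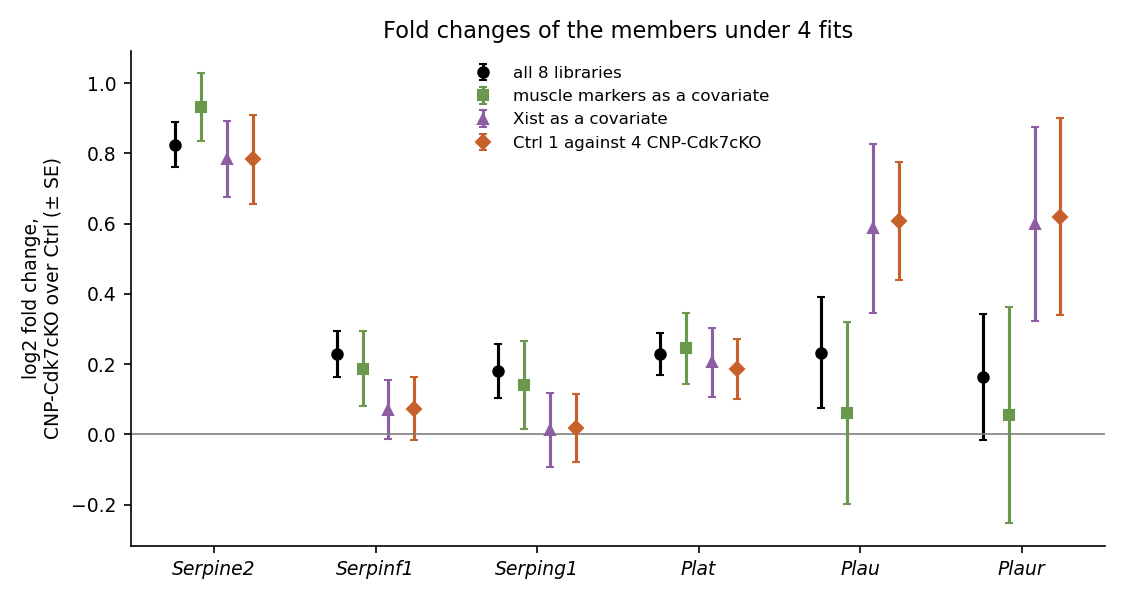
Log2 fold change of each member (CNP-Cdk7cKO over Ctrl, bars are SE) with all 8 libraries, with muscle markers or Xist as a covariate, and with Ctrl 1 as the lone control. Serpine2 stays between 0.78 and 0.93, Serpinf1 and Serping1 lie between 0.01 and 0.07 once Xist is in the fit or Ctrl 1 is the lone control, and Plau and Plaur move up to about 0.6.

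Relative to the summed fibroblast markers, the groups of Serpine2 did not overlap and those of the other members did. How many of all tested genes separate on this scale was not computed. The members were chosen with their contrast known, so nothing is read from these overlaps. This ratio depends on the denominator, which was itself higher in every knockout library than in any control. The Schwann cell marker sum, which was lower in the knockouts, was not used as a denominator. Per 1000 CPM of the 10 summed markers, Serpine2 stood at 10.6, 10.7, 11.5 and 11.7 CPM across Ctrl 1 to 4 and at 17.4, 16.9, 15.7 and 18.1 CPM across CNP-Cdk7cKO 1 to 4. On the same scale Serpinf1 measured 8.74 ± 0.241 CPM in the controls and 8.89 ± 0.419 CPM in the knockouts (SD, n = 4). Serping1 measured 12.3 ± 0.648 and 12.1 ± 0.548 CPM, and Plat 4.13 ± 0.431 and 4.20 ± 0.469 CPM. For these 3 genes the groups overlapped on this scale. Plau (0.339 ± 0.101 and 0.346 ± 0.0487 CPM) and Plaur (0.117 ± 0.0273 and 0.114 ± 0.0198 CPM) also overlapped. Which cells made each transcript was not tested.

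**Figure D3:**
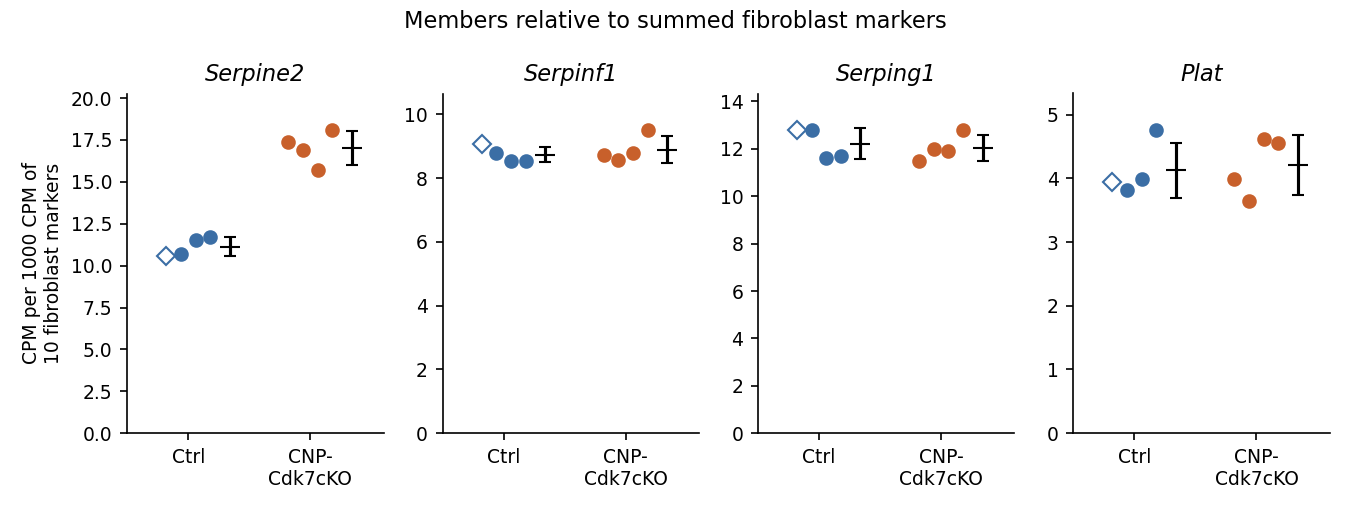
CPM of 4 members per 1000 CPM of 10 summed fibroblast markers in each library (symbols as for the plot of CPM by library; bars are mean and SD of 4). Serpine2 goes from 11.1 ± 0.534 in Ctrl to 17 ± 1.03 in CNP-Cdk7cKO, and the groups of Serpinf1, Serping1 and Plat overlap.

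Per length, the 2 plasminogen activators were far apart in level and all 3 serpins were above both. Levels per length are given as TPM, from each gene's counts over its longest annotated transcript, scaled to the same sum in every library. In Ctrl, Serping1 was highest at 491 ± 56.9 TPM, followed by Serpinf1 at 338 ± 30.8 and Serpine2 at 231 ± 4.54 TPM (SD, n = 4). Plat followed at 71.9 ± 4.48 TPM, then Plau at 10.2 ± 2.72 and Plaur at 4.08 ± 0.892 TPM, and no neighbours in this order overlapped. In CNP-Cdk7cKO the order was Serping1 (578 ± 35.7 TPM), Serpine2 (426 ± 40.7), Serpinf1 (411 ± 20.5), Plat (87.5 ± 3.63), Plau (12.4 ± 0.895) and Plaur (4.76 ± 0.614), and Serpine2 and Serpinf1 overlapped. The longest Serpine2 transcript, of 3393 bases, is not labelled protein-coding. The same holds for Plat (4042 bases, longest protein-coding 2525) and Plaur (2009 bases, longest protein-coding 1506). With the longest protein-coding transcript of each gene (2210 bases for Serpine2), an alternative chosen after the data were seen, Serpine2 measured 335 ± 6.64 TPM in Ctrl, where it overlapped Serpinf1 (318 ± 29.2). On that scale it measured 614 ± 59.3 TPM in CNP-Cdk7cKO, the highest mean of the 6, where it overlapped Serping1 (543 ± 34).

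Serpine2 transcripts were higher relative to those of Plat in every knockout library than in any control. Serpine2 over Plat, per length, was 3.21, 3.34, 3.44 and 2.92 in Ctrl 1 to 4 and 5.20, 5.54, 4.05 and 4.74 in CNP-Cdk7cKO 1 to 4, with no overlap. Serpine2 over Plau was 23.9 ± 5.72 in the controls and 34.5 ± 5.44 in the knockouts (SD, n = 4), and these groups overlapped. Plat over Plau was 7.47 ± 2.06 and 7.06 ± 0.252. All 3 ratios use the longest annotated transcript, which exceeds the longest protein-coding one for Serpine2 (3393 and 2210 bases) and Plat (4042 and 2525 bases). The size of each ratio depends on that choice, which is the same in every library, so the overlap of the groups does not. These are ratios of transcripts, and protein was not measured.

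Mmp2, the gene of the matrix protease gelatinase A, had the highest Pearson correlation of log2 CPM with Serpine2 over the 8 libraries, 0.998, among 9627 genes of at least 10 CPM. The difference between the groups enters this value, and for the deviations from the group means it was 0.962. Mmp2 stood at 322, 317, 317 and 303 CPM across Ctrl 1 to 4 and at 520.0, 528, 437 and 491 CPM across CNP-Cdk7cKO 1 to 4. As for Serpine2, CNP-Cdk7cKO 3 was the lowest and CNP-Cdk7cKO 2 the highest knockout library. Next came the collagen V gene Col5a1 (r = 0.997, and 0.978 for the deviations, above that of Mmp2), the p53 target Phlda3, Baiap2 and Art4 (0.994 each), with log2 fold changes from 0.22 for Col5a1 to 0.72 for Art4. Among the members, the correlation with Serpine2 was 0.85 for Serpinf1, 0.77 for Plat, 0.70 for Serping1, 0.45 for Plau and 0.27 for Plaur. For the deviations from the group means it was 0.62 for Serpinf1 and 0.53 for Serping1, but -0.34 for Plat, -0.29 for Plau and -0.57 for Plaur. All these correlations share the 2 groups and the same libraries, and are given as a description.

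**Figure D4:**
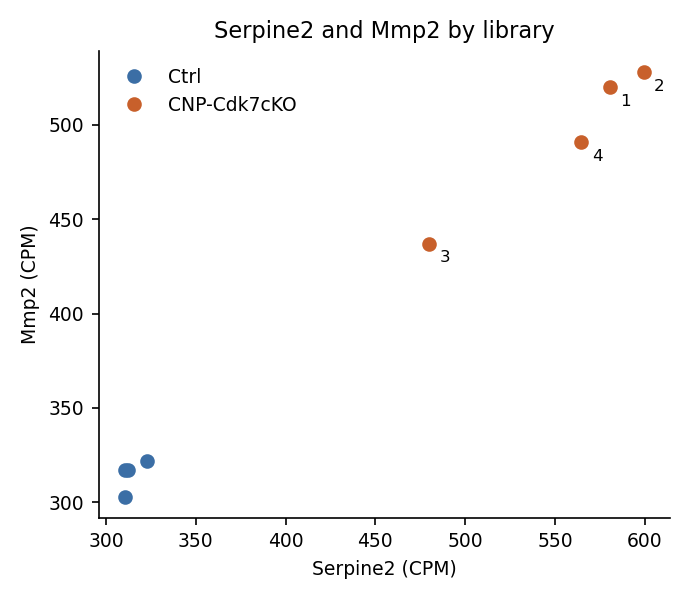
CPM of Mmp2 against CPM of Serpine2, 1 point per library (knockout libraries numbered; neither axis starts at 0). The 4 Ctrl libraries lie together at 310.4 to 323 CPM of Serpine2 and 303 to 322 CPM of Mmp2, and the knockout libraries lie along a line from replicate 3 to replicate 2.

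Around the members, lists of pathway genes by role were read in the same fit, with Benjamini-Hochberg adjusted p over all genes. Together 106 tested genes held 14 that rose and 4 that fell, or 17%, beside 11.7% of all tested genes (5.07% higher and 6.60% lower). Their median log2 fold change was 0.10. Of the 18 calls, 3 (Mmp2, Serpind1 and C1qb) were kept with Xist as a covariate, 2 (Mmp2 and Pcsk6) with the muscle markers in its place and 1 (Serpind1) in the female libraries, while all 18 kept their sign. Mmp2, Mmp8, Plxdc1, Serpind1, Bsg, Pcsk6, Pdgfd and Tmprss5 were called with any 1 library left out. Without Ctrl 2 or Ctrl 3, 9 of the 18 were called.

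Plasminogen itself was near the limit of detection in nerve, and most of the other plasminogen system genes did not pass the test. Plg gave 8 counts over the 4 Ctrl libraries and 2 over the 4 CNP-Cdk7cKO libraries. Thrombin's gene F2 gave 3 and 0, and a count of 0 allows up to 0.145 to 0.155 CPM in a knockout library (3 counts; counting error only). Hepatocyte markers summed to 0.306 to 1.08 CPM in any library, with Serpina1a and Fgb at 0. Of 18 tested genes of plasminogen activation and clearance, 2 rose and 0 fell (11.1%; median log2 fold change 0.08). Pdgfd, a growth factor whose latent form urokinase cleaves, rose from 3.99 ± 0.280 to 6.74 ± 0.771 CPM (SD, n = 4), by 0.76 ± 0.13 (SE) on the log2 scale (edgeR adjusted p = 0.00388). With Xist as a covariate Pdgfd had 0.741 (adjusted p = 0.139), and with the muscle markers in its place the adjusted p was 0.0939. Mrc2, the collagen uptake receptor that binds the urokinase receptor complex, rose from 148 ± 9.18 to 169 ± 8.04 CPM (0.20 ± 0.06, adjusted p = 0.0413), a call lost without Ctrl 2, 3 or 4 or CNP-Cdk7cKO 1, 2 or 4 (adjusted p up to 0.117). With Xist as a covariate its log2 fold change was 0.105 (adjusted p = 0.597). The next 2 genes did not pass and fall outside the naming rule, so they were named after their values were seen. The plasminogen receptor gene Plgrkt measured 18.5 ± 0.728 and 20.4 ± 0.366 CPM (SD, n = 4; edgeR adjusted p = 0.146), and Lrp1, which clears serpin-protease complexes, 426 ± 14.8 and 446 ± 26.6 CPM (adjusted p = 0.421).

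Among the remaining serpins, Serpind1 fell and Serpinh1 rose out of 11 tested genes (18.2%; median log2 fold change -0.15). Serpind1, the thrombin inhibitor heparin cofactor II, stood at 14.8, 14.6, 8.31 and 11 CPM across Ctrl 1 to 4 and at 5.22, 5.75, 3.44 and 5.10 CPM across CNP-Cdk7cKO 1 to 4 (log2 fold change -1.31 ± 0.21 SE, edgeR adjusted p = 0.00266). Every knockout library was below every control, opposite in sign to Serpine2. Serpinh1, a collagen chaperone that inhibits no protease, rose from 1322 ± 45.8 to 1478 ± 19.7 CPM (SD, n = 4; 0.16 ± 0.04 SE, adjusted p = 0.0147). Its call was lost without Ctrl 2 or Ctrl 4 (adjusted p up to 0.0592), and with Xist as a covariate its log2 fold change was 0.09 (adjusted p = 0.478). Of 12 tested genes of thrombin, its receptors and coagulation, Serpind1 fell and thrombomodulin (Thbd) rose from 96.4 ± 3.77 to 114 ± 11.3 CPM (0.24 ± 0.07, adjusted p = 0.0442), or 16.7% with a median of 0.13. The Thbd groups overlapped, and its call was lost whichever library other than CNP-Cdk7cKO 4 was left out (adjusted p up to 0.115).

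Mmp2, which tracked Serpine2 across libraries, had the smallest p among the listed genes. In the list of metalloproteinases and their inhibitors 3 of 18 tested genes rose and 1 fell (22.2%; median log2 fold change 0.10). Mmp2 rose from 315 ± 8.05 to 494 ± 41.4 CPM (SD, n = 4), by 0.65 ± 0.06 (SE) on the log2 scale (edgeR adjusted p = 0.000105). Mmp14, the membrane protease that activates Mmp2, rose from 347 ± 8.07 to 385 ± 8.78 CPM (0.15 ± 0.04, adjusted p = 0.0255), and basigin (Bsg), an inducer of metalloproteinases, from 486 ± 11.7 to 589 ± 26.5 CPM (0.28 ± 0.04, adjusted p = 0.00245). The Mmp14 call was lost without Ctrl 3, Ctrl 4 or CNP-Cdk7cKO 2 (adjusted p up to 0.0823), and with the replicate number as a block. The neutrophil collagenase gene Mmp8 fell from 2.60 ± 0.276 to 0.98 ± 0.240 CPM (-1.40 ± 0.22, adjusted p = 0.00277). Mast cell and neutrophil markers summed to 11.4 to 18.3 CPM in the controls and 4.76 to 15.8 CPM in the knockouts, and their part in the Mmp8 value was not tested.

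In complement, the 3 chains of C1q rose and 0 of 20 tested genes fell in the main fit (15% called, median log2 fold change 0.12). The protease genes C1ra and C1s1, of the C1r and C1s that C1 inhibitor blocks, did not pass (edgeR adjusted p = 0.112 and 0.322). They were named after their values were seen. With DESeq2, 2 genes of this list were called lower. With no filter on low counts or with the replicate block 1 was, as without Ctrl 1, Ctrl 4 or CNP-Cdk7cKO 2. C1qa went from 61.9 ± 4.69 to 77.3 ± 10.6 CPM, C1qb from 53.9 ± 6.86 to 70.2 ± 7.74 and C1qc from 59.6 ± 3.55 to 74.6 ± 9.75 CPM (SD, n = 4; edgeR adjusted p = 0.0438, 0.0294 and 0.0332). C1q is made by macrophages, whose 10 markers, C1qa and C1qb among them, summed to 356 to 448 CPM in the controls and 425 to 506 CPM in the knockouts, with 4 higher. The C1q calls were lost without Ctrl 1, 2 or 3 or CNP-Cdk7cKO 3 or 4 (adjusted p up to 0.12), and that of C1qb also without CNP-Cdk7cKO 2. The C1qa groups overlapped. The log2 fold change of C1qb was 0.38 ± 0.10 (SE), and 0.66 with Xist as a covariate. In that fit C1qa had 0.386 and C1qc 0.455, and neither was called (edgeR adjusted p = 0.261 and 0.139). Of 6 candidate receptors of PEDF, 1 rose (16.7%, median log2 fold change -0.00368): Plxdc1, from 48.2 ± 3.98 to 69.2 ± 5.59 CPM (0.52 ± 0.07 SE, adjusted p = 0.00153). Its log2 fold change was 0.379 with Xist as a covariate (edgeR adjusted p = 0.128). With the muscle markers in its place the adjusted p was 0.0557.

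Other serine proteases and their inhibitors held 3 rises and 2 falls among 24 tested genes (20.8%; median log2 fold change 0.12). The proprotein convertase gene Pcsk6 fell from 23.9 ± 2.02 to 13.5 ± 1.90 CPM (SD, n = 4), a log2 change of -0.82 ± 0.11 (SE) (edgeR adjusted p = 0.000869). The transmembrane protease gene Tmprss5 fell from 71.1 ± 3.47 to 59.9 ± 2.49 CPM (-0.25 ± 0.05, adjusted p = 0.0108). Matriptase (St14) rose from 0.76 ± 0.191 to 1.87 ± 0.657 CPM (1.27 ± 0.32, adjusted p = 0.0276), and fibroblast activation protein (Fap) from 62.6 ± 2.42 to 74.3 ± 5.90 CPM (0.25 ± 0.06, adjusted p = 0.0247). The third rise was Htra1 (0.40 ± 0.10, adjusted p = 0.0304), named after its value was seen. These 3 rises had overlapping groups and were called in 1 (St14), 2 (Fap) and 3 (Htra1) of the 8 fits that left out a library, with adjusted p up to 0.0775, 0.0716 and 0.0864; 0 of the 3 passed without Ctrl 2, Ctrl 3, CNP-Cdk7cKO 1 or CNP-Cdk7cKO 2.

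**Figure D5:**
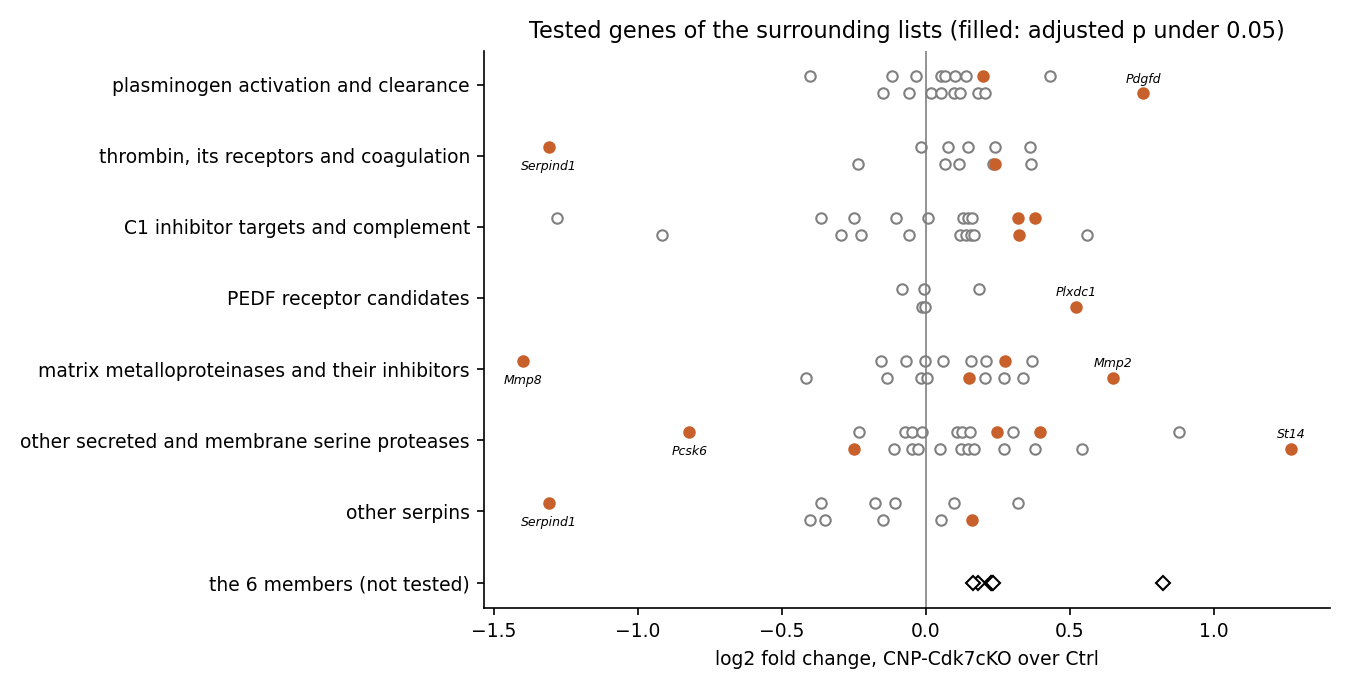
Log2 fold change of every tested gene in 7 lists around the members (circles, filled where adjusted p was under 0.05; called genes past 0.45 in size are named), with the 6 members as diamonds in the last row. Serpine2 lies at 0.83, near Pdgfd (0.76) and Mmp2 (0.65), and Serpind1 lies at -1.31 in both lists that hold it.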

How the data were processed

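Column-purified, DNase-treated nerve RNA went into stranded mRNA libraries, per the labels. The authors' deposited table holds estimated counts by gene, and the submitters' processing notes name STAR, Salmon and GRCm38. Not given in the sources used here are their versions, the strand setting and which annotation was used. Of the values 8.29% were not whole (tolerance 1e-06), and all were rounded. Symbols matched 55141 of 55487 identifiers, and coordinates and lengths are from GENCODE on GRCm38.

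Low genes were removed by filterByExpr with a count of at least 10 and a total of at least 15, and libraries were scaled by TMM and compared with the quasi-likelihood test of edgeR 4.0.16 (R 4.3.3, limma 3.58.1, DESeq2 1.42.0), Benjamini-Hochberg adjusted over 15056 genes and called under 0.05. The step was checked on simulated counts. Replicates differed by more than counting noise (chi-square per degree of freedom 3.86 to 17.6). Log values used a prior count of 2.

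The members and lists were chosen with earlier results of these data known. Named genes are the members, Cdk7, up to 4 called genes with the smallest p per list (the 2 with the highest mean where none was called), the 5 most like Serpine2 and the nearest tested genes beside each member; others are marked.

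Alternatives were no filter or one of 1 CPM, RLE scaling, TMM computed with genes of muscle, blood, fat and mitochondria set aside, DESeq2, limma-voom (quality weights), a replicate block, a muscle or Xist covariate, female libraries only and the loss of each library in turn. 1 listed gene is not reported here.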

Additional observations from a re-analysis of the deposited data

Results flagged for a closer look

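Serpine2 in Ctrl 1 measured 323 CPM, far from the other 3 control libraries, of which the nearest measured 312 CPM, when set against the narrow range of that group. The gap was 0.856 of the range, above the 95% limit of Dixon's test for a group of 4. Chance gives about 1 such library in 20 groups, and 12 groups were examined. The knockout libraries, at 480.0 to 599.5 CPM, lie outside this range.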

How the results depend on the processing

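All 6 members had a positive log2 fold change in each of the 18 alternative fits. They were chosen with this contrast known and the fits share libraries, so nothing is read from the shared sign. Some values were smaller than their SE, such as 0.01 ± 0.11 for Serping1 with Xist as a covariate and 0.05 ± 0.17 for Plaur without Ctrl 1. Over all fits Serpine2 ranged from 0.78 to 0.93, Plat from 0.19 to 0.27, Serpinf1 from 0.07 to 0.28, Serping1 from 0.01 to 0.24, Plau from 0.06 to 0.61 and Plaur from 0.05 to 0.62. With the muscle markers as a covariate Serpine2 had 0.93, with 140 higher and 187 lower calls, 1 and 1 of them listed. With Xist as a covariate the counts were 76 and 167, and 2 and 1, and the log2 fold changes were 0.0707 for Serpinf1, 0.0127 for Serping1, 0.59 for Plau and 0.60 for Plaur. In the female libraries, whose lone control is taken to vary as the knockouts do, 37 and 77 genes were called, 0 and 1 of them listed, with 0.0736 for Serpinf1, 0.0187 for Serping1, 0.61 for Plau and 0.62 for Plaur. The cause of these shifts was not tested.

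With 1 library left out, 470 to 655 genes were called higher and 653 to 860 lower, and 5 to 12 listed genes higher and 4 to 5 lower. The log2 fold changes then ranged from 0.79 to 0.89 for Serpine2, 0.19 to 0.28 for Serpinf1, 0.13 to 0.24 for Serping1, 0.19 to 0.27 for Plat, 0.13 to 0.42 for Plau and 0.05 to 0.25 for Plaur. The replicate numbers did not pair the libraries (correlation of same-numbered deviations 0.01 to 0.13), and with the replicate block the calls numbered 682 higher and 926 lower, 13 and 5 of them listed, Serpine2 had 0.82 and the calls of Mmp14 and St14 were lost. Per length, Serpine2 ranked 3 of 6 in Ctrl and 2 in CNP-Cdk7cKO, and by CPM or by the longest protein-coding transcript 2 and 1. Plaur rests on at most 87 counts a library, which limits its precision.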

Other observations

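Of the 12 nearest tested genes on either side of the members, 1 fell and 0 rose (edgeR, adjusted p under 0.05), where 11.7% of all tested genes were called. Their log2 fold changes ran from -0.24 to 0.39, the highest being that of Gm19426 beside Serping1 (1.24 ± 0.0785 and 1.63 ± 0.526 CPM, adjusted p = 0.358). On chromosome 1, Mrpl44, which lies 12752 bases from Serpine2, averaged 17 ± 0.930 CPM in the controls and 18.1 ± 1.06 CPM in the knockouts, and Cul3, 403743 bases away on the other side, 103 ± 4.79 and 103 ± 2.69 CPM (SD, n = 4). The neighbour that fell was Vcl, the vinculin gene beside Plau, from 138 ± 4.64 to 117 ± 8.53 CPM (log2 fold change -0.24 ± 0.06 SE, edgeR adjusted p = 0.0208). Cadm4, an adhesion gene of myelinating Schwann cells that lies 6055 bases from Plaur, measured 1361 ± 63.0 and 1471 ± 81.9 CPM and did not pass (adjusted p = 0.17).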
